A study of Mus musculus with 6 samples.

Results

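Aminoacyl-tRNA synthetase genes were compared between PIASy-WT, PIASy-Mut and non-injected two-cell embryos. They were taken as the protein-coding genes whose symbol is a 1-letter amino acid code followed by ars, with or without a final 1 or 2, plus Eprs, Farsa, Farsb and Tarsl2. This gave 38 genes of the 53023 in the table, of which 21963 are protein coding. The symbols without a final 2, together with Tarsl2, a cytosolic paralogue of Tars, make 21 genes for the cytosolic enzymes. The other 17 symbols, all ending in 2, are genes for mitochondrial enzymes. Gars and Kars each encode both the cytosolic and the mitochondrial form of their enzyme and were counted as cytosolic.

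Each synthetase joins 1 amino acid to its tRNA, the step that gives the ribosome its charged substrates. Most cytosolic and mitochondrial enzymes come from separate nuclear genes, and several cytosolic ones assemble with scaffold proteins into the multi-synthetase complex. The mouse two-cell embryo is losing maternal mRNA while its own genome starts to be transcribed, so an mRNA level at this stage combines stored and new transcripts. PIASy, encoded by Pias4, is an E3 ligase that attaches the small protein SUMO to its targets.

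The study asked what excess PIASy does to the transcripts of the two-cell embryo and whether its ligase activity is needed. Embryos of the ICR strain were either left uninjected or injected with 100 ng/µl of mRNA for HA-tagged PIASy-WT or PIASy-Mut, whose C335F change inactivates the ligase. Injection took place 1.5 to 3 h after insemination (hpi), embryos with fluorescence at 9 hpi were kept, and RNA was taken from the two-cell stage at 28 hpi. Each of the 3 groups had 2 libraries of 5 pooled embryos, so single embryos are not resolved, and no library of embryos injected with an unrelated mRNA was analysed here. The labels do not say whether the 2 libraries of a group came from separate collections. The paper gives an n for its RNA-seq and describes n as counting biological replicates, without saying how the pools were collected. The P-values measure the spread between these libraries, and how much of that spread is technical was not tested.

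Levels are in FPKM, fragments scaled to gene length and to the fragments counted on all genes of a library, so that genes of different length can be compared. These depths were 871663 to 1363928 fragments, and 3 fragments were taken as the limit of detection. The Pias4 row was at 2.98 and 3.59 FPKM in the non-injection libraries, 862 and 611 with PIASy-Mut and 610 and 579 with PIASy-WT. All 9 listed two-cell genes, such as Zscan4c and Zfp352, were detected in every library. Their summed FPKM was 1347 to 1500 in the PIASy-Mut and non-injection libraries and 624 and 862 in PIASy-WT. A sum does not show single genes, and the paper reports that PIASy-WT left Zscan4 cluster activation unaffected. All 8 listed oocyte genes were also detected, at a summed 2965 to 4919 FPKM in the first 4 libraries and 4783 and 5389 in PIASy-WT. Of 10 cumulus cell genes, Amh, Inha and Inhba were at 0 in every library and the sum was 2.04 to 3.28 FPKM in non-injection and PIASy-Mut library 1 and 6.68 to 7.88 in the other 3, and 5 sperm genes summed to 1.96 to 5.89 FPKM. The part of these stage markers in the results on synthetases was not tested. In pools of embryos, fewer cells with a transcript and less of it per cell cannot be told apart.

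The synthetase mRNAs covered a wide range of levels. The 3 cytosolic genes with the highest mean over all libraries were Farsb, for the beta subunit of phenylalanyl-tRNA synthetase, with a mean FPKM of 59.8, Nars (asparagine) with 43.8 and Iars (isoleucine) with 37.2. That order includes PIASy-WT, and by group means Rars (arginine) came second after Farsb both without injection (53.2 FPKM beside 54.2) and with PIASy-Mut (44.4 beside 56.2), with 3.60 in PIASy-WT. The 3 highest mitochondrial genes were Fars2 (phenylalanine) with 26.3, Lars2 (leucine) with 19.1 and Cars2 (cysteine) with 4.49. Lars2 and Fars2 alone made up 59.0 to 69.9% of the summed mitochondrial FPKM in the PIASy-Mut and non-injection libraries and 77.1 and 85.0% in PIASy-WT. The plot of levels shows 37 of the genes in each library.

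**Figure D1:**
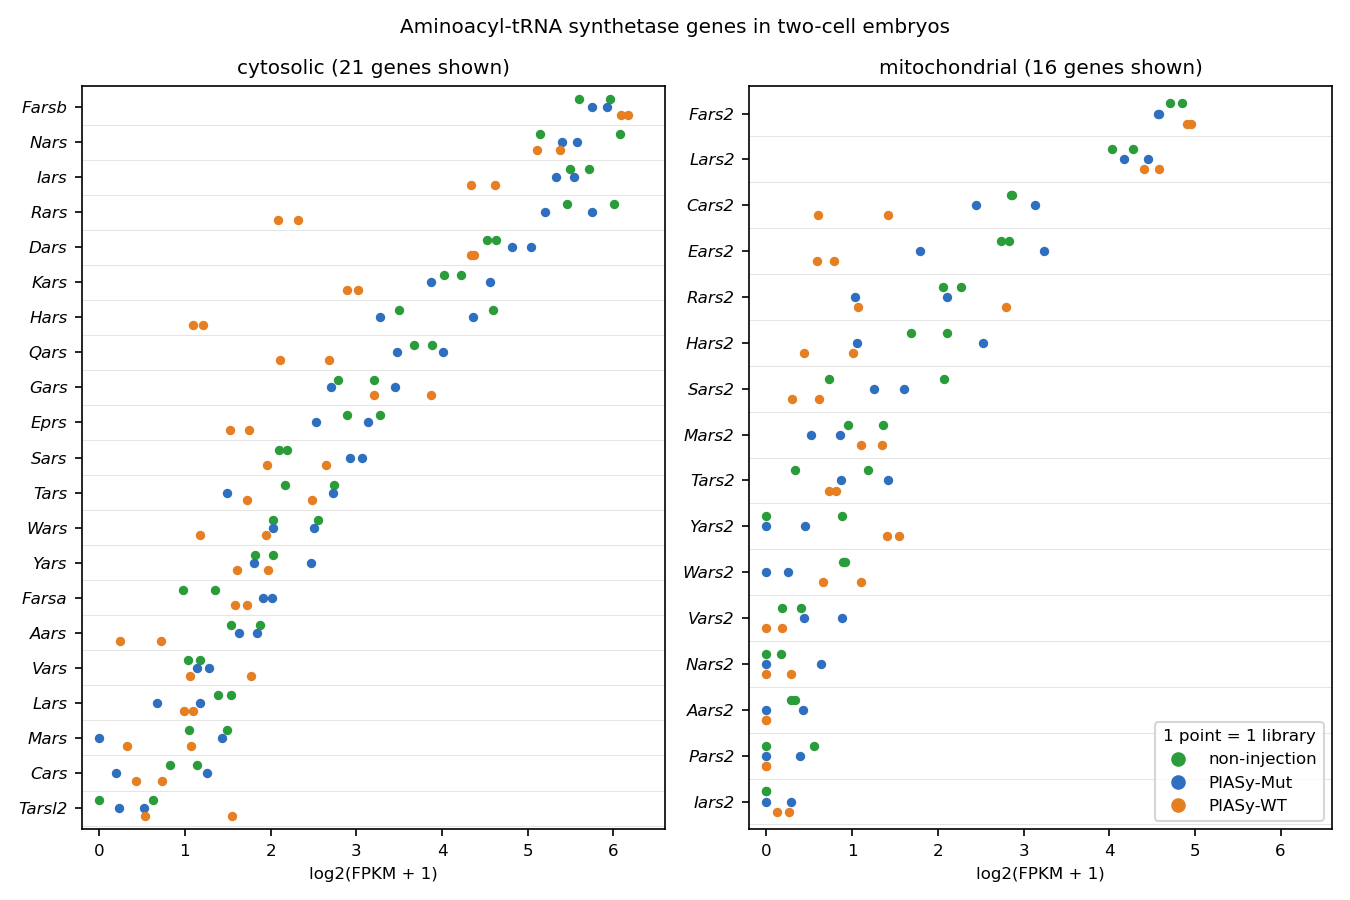
Level of 37 aminoacyl-tRNA synthetase genes, as log2(FPKM + 1), in the 6 libraries, with cytosolic genes on the left and mitochondrial genes on the right in order of mean level. 1 point is 1 library. The PIASy-WT points of Rars and Hars lie far to the left of the other 4, and those of Farsb and Fars2 to the right.

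Of the 38 genes, 31 reached 1 FPKM in at least 2 libraries and were tested, 20 of them cytosolic and 11 mitochondrial. The 2 that passed the test, both lower in PIASy-WT, were Rars, for arginyl-tRNA synthetase, and Hars, for histidyl-tRNA synthetase. They passed against non-injection and against PIASy-Mut, 2 comparisons that share the PIASy-WT libraries. No synthetase gene passed as higher, and none passed in PIASy-Mut against non-injection. The test was limma on log2(FPKM + 1) over 16100 genes, with adjusted P of at most 0.05 as the threshold.

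The 2 of 31 lower calls stand beside a background of 5.76% of all genes tested against non-injection and 6.01% against PIASy-Mut. For higher calls the background was 1.03% and 0.82%, against 0 of the 31. The fold changes of both genes also lay beyond -2 on the log2 scale, which with the same adjusted P held for 3.81% and 4.06% of all genes. In PIASy-Mut against non-injection, 0.0% of genes were called lower and 0.00621% higher, the latter being Pias4 alone. A wider group stood between these 2 and the rest. At an unadjusted P under 0.05, 9 synthetase genes were lower in each PIASy-WT comparison (Rars, Hars, Iars, Kars, Qars, Eprs, Aars, Ears2 and Cars2), while 0 were higher against non-injection and 1, Yars2, against PIASy-Mut. At the same threshold 17.6% and 18.2% of all genes tested were lower and 10.6% and 9.46% higher. These 9 were the ones called lower in both comparisons by voom, a test on the fragment counts recovered from FPKM. It tested 25 of the synthetase genes and called 0 of them higher. Voom reads the same fragments, so it is no independent support. Aars and Ears2 passed the FPKM filter only through libraries other than PIASy-WT. Hars, Aars and Ears2 reached the 10 fragments needed for voom only in those libraries. Of its 10193 genes, voom called 19.0% and 18.8% lower and 8.51% and 5.94% higher.

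**Figure D2:**
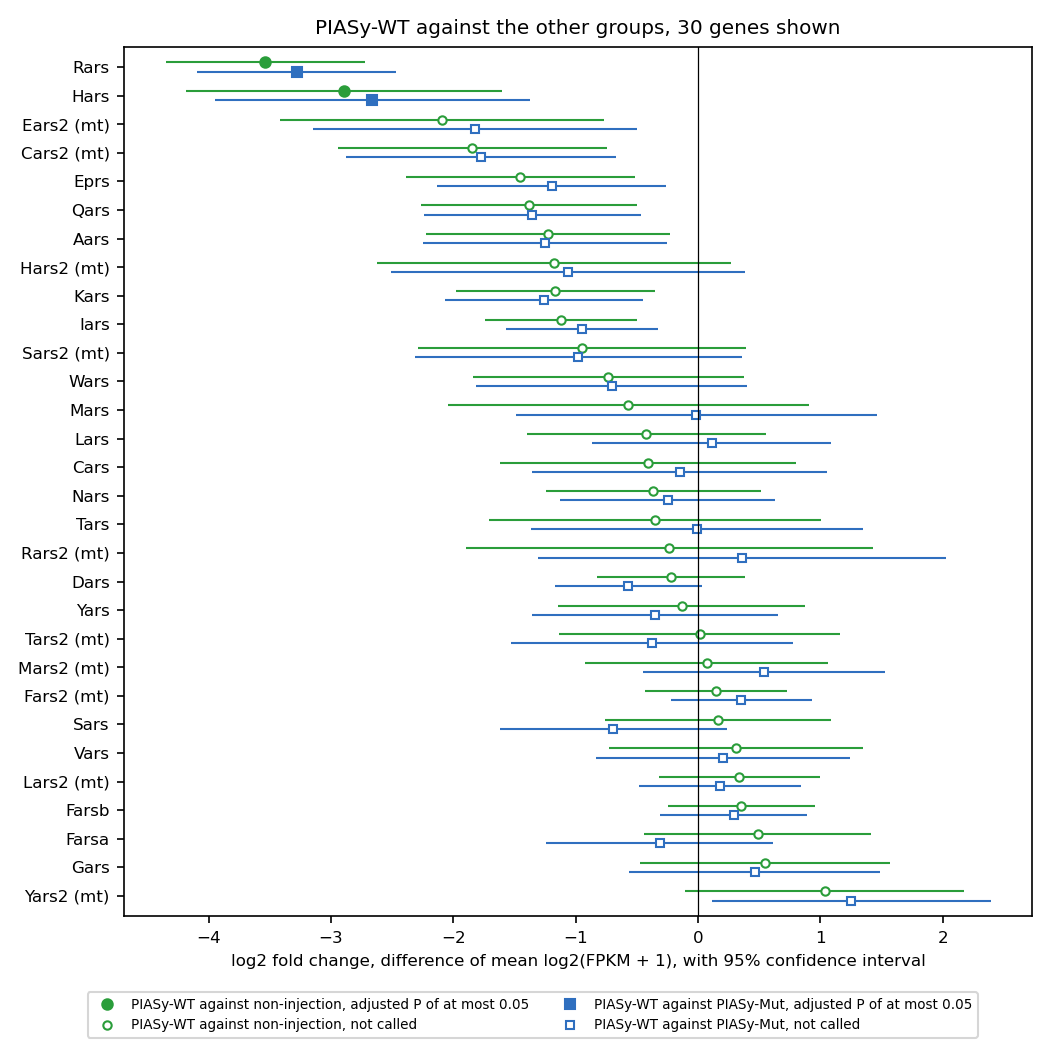
Log2 fold change of PIASy-WT against non-injection (circles) and against PIASy-Mut (squares) for 30 of the synthetase genes tested, with 95% confidence intervals from limma. Filled symbols mark an adjusted P of at most 0.05, reached by Rars and Hars in both comparisons, and (mt) marks mitochondrial enzymes.

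The 8 cytosolic enzymes of the multi-synthetase complex had log2 fold changes of -3.54 to -0.22 relative to non-injection and -3.28 to 0.11 relative to PIASy-Mut. Their median was -1.14 relative to non-injection and -1.07 relative to PIASy-Mut, beside medians of 0.01 and -0.03 over all genes tested, and their difference from the other synthetase genes was not tested. One of the 8, Rars, was called, and 5 (Rars, Iars, Kars, Qars and Eprs) were lower at an unadjusted P under 0.05 in both comparisons, where 17.6% and 18.2% of all genes were.

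Rars, at chr11:35808381-35834506 on the minus strand of mm10, was among the most abundant synthetase mRNAs in controls. Its FPKM was 42.9 and 63.6 without injection, 52.8 and 35.9 with PIASy-Mut and 3.97 and 3.23 with PIASy-WT. Both PIASy-WT libraries lay far below the lowest of the other 4, on 17 and 12 fragments beside 101 to 232. This is a log2 fold change of -3.54 ± 0.33 (SE) relative to non-injection (adjusted P = 0.0224, limma) and -3.28 ± 0.33 relative to PIASy-Mut (adjusted P = 0.0219, limma). Both calls were lost without a filter (adjusted P = 0.0576 and 0.0708, limma). The call relative to PIASy-Mut was also lost on the 4 libraries compared (adjusted P = 0.0681, limma). Summed over a group's libraries, the Rars share of fragments was 14.4 times higher in non-injection than in PIASy-WT (95% interval 9.88 to 21.8) and 12.4 times higher in PIASy-Mut (8.45 to 18.9). Such intervals cover counting error only, as reads without molecular identifiers are not independent molecules. None of the 50-base stretches of the Rars transcripts occurs in another annotated gene.

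Iars, at chr13:49682100-49734267 on the plus strand, had 51.5 and 44.1 FPKM without injection, 45.4 and 39.2 with PIASy-Mut and 23.6 and 19.3 with PIASy-WT. Both PIASy-WT libraries lay below the other 4, at a log2 fold change of -1.12 ± 0.26 (SE; adjusted P = 0.0550, limma) and -0.95 ± 0.26 (adjusted P = 0.0769, limma), which missed the threshold. A share of 7.15% of its 50-base stretches also occurs in the gene Gm4849.

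Kars, for lysyl-tRNA synthetase, was at 15.3 and 17.6 FPKM without injection, 22.6 and 13.6 with PIASy-Mut and 7.10 and 6.43 with PIASy-WT. Qars (glutamine) was at 11.7 and 13.7, 15.2 and 10.1, and 5.40 and 3.31 in the same order. Eprs, a single protein that charges both glutamate and proline tRNA, was at 6.44 and 8.70, 7.81 and 4.75, and 1.88 and 2.35. In all 3 genes both PIASy-WT libraries lay below the other 4. Their log2 fold changes against non-injection were -1.17, -1.38 and -1.45, with adjusted P-values by limma of 0.0866, 0.0726 and 0.0737, and voom gave 0.0266, 0.0111 and 0.00325.

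The 3 remaining complex enzymes held no call. Dars (aspartate) was at 23.7 and 22.1 FPKM without injection, 27.1 and 31.9 with PIASy-Mut and 19.2 and 19.8 with PIASy-WT, with a log2 fold change of -0.22 ± 0.25 (SE) against non-injection, which turned to 0.07 under quantile normalization, and of -0.57 ± 0.25 against PIASy-Mut. Both PIASy-WT libraries of Dars lay below the other 4. Lars (leucine) had 2 to 10 fragments a library and Mars (methionine) 0 to 7, so that their 95% confidence intervals, -1.40 to 0.56 and -2.05 to 0.90 against non-injection, include both 0 and the value of Kars. With a pseudocount of 0.1, Mars was at -1.20 against non-injection and Iars at -1.15. The summed FPKM of the 8 complex enzymes was 155 and 173 without injection, 174 and 136 with PIASy-Mut and 63.3 and 55.8 with PIASy-WT. Of the scaffold genes, Aimp2 was at 40.8 and 58.8, 82.0 and 38.8, and 19.6 and 14.2 FPKM, which missed the threshold against non-injection (log2 fold change -1.50, adjusted P = 0.0856, limma) and against PIASy-Mut (-1.70, adjusted P = 0.0664, limma), while voom gave an adjusted P of 0.0215 and 0.0118. Eef1e1, another scaffold gene, was at 23.4 to 35.8 FPKM in the 6 libraries without a call. Its PIASy-WT libraries overlapped non-injection and lay below both PIASy-Mut libraries. Aimp1 had 2 to 8 fragments and was not tested.

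**Figure D3:**
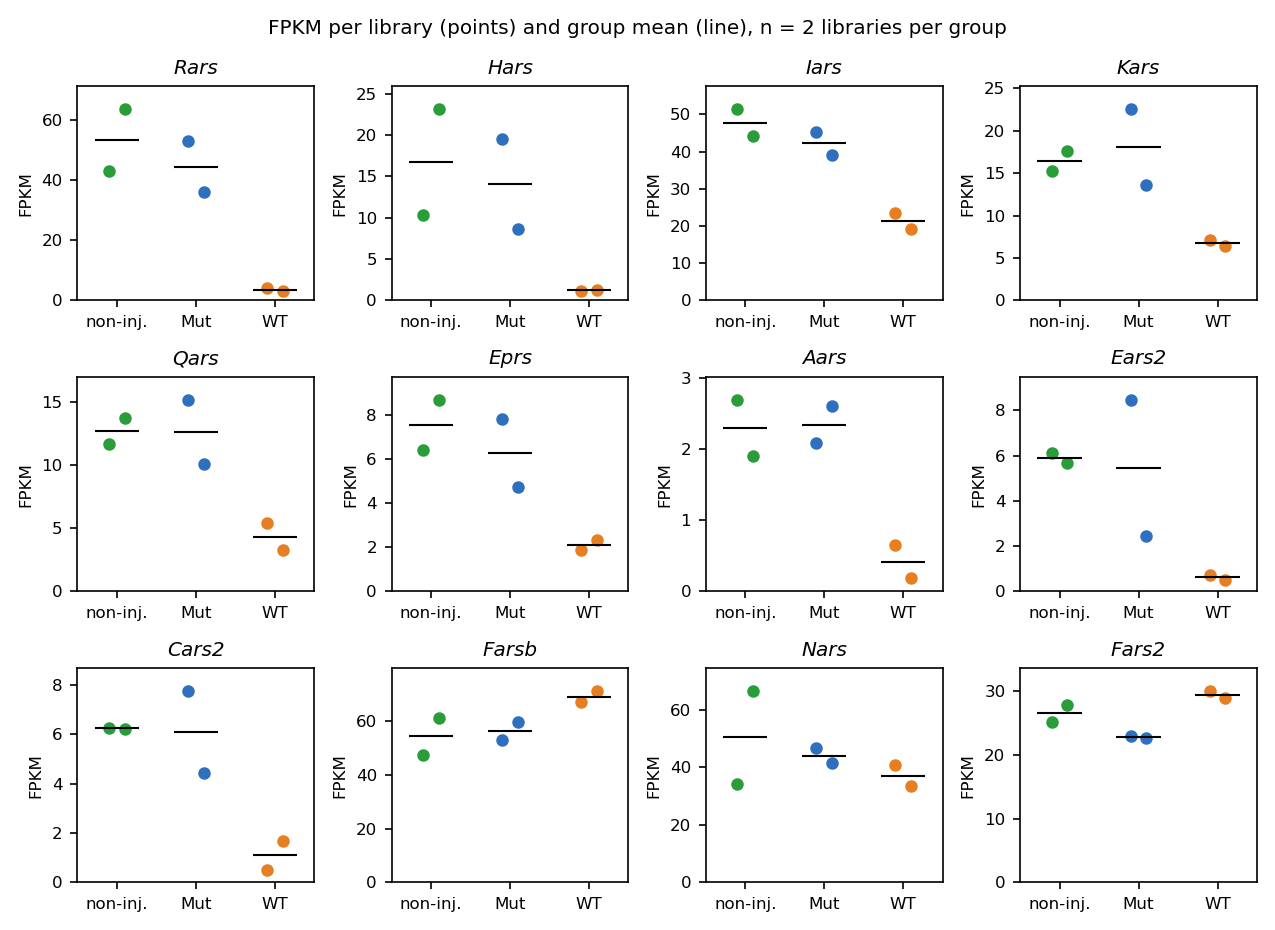
FPKM in each library (points) and group mean (line) for the 9 synthetase genes lower in PIASy-WT at an unadjusted P under 0.05 in both comparisons, and for Farsb, Nars and Fars2, 3 abundant genes that were not. Aars and Ears2 passed the filter only through libraries other than PIASy-WT. Each axis starts at 0 and n is 2 libraries per group.

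The cytosolic enzymes outside the complex were mixed. Over the 12 tested of 13, the log2 fold changes had a median of -0.24 relative to non-injection and -0.28 relative to PIASy-Mut. The summed FPKM of the 13 was 119 and 179 without injection, 152 and 144 with PIASy-Mut and 136 and 136 with PIASy-WT. These PIASy-WT sums lay between the non-injection ones and below those of PIASy-Mut. One gene, Hars, was called.

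Hars lies at chr18:36766530-36783205 on the minus strand, head to head with Hars2. Its FPKM was 10.3 and 23.1 without injection, 19.5 and 8.66 with PIASy-Mut and 1.14 and 1.31 with PIASy-WT. The PIASy-WT values rest on 3 fragments in each library, the limit of detection, beside 15 to 52 elsewhere, and both lay below the other 4 libraries. Summed over libraries, the Hars share of fragments was 13.2 times higher in non-injection (95% interval 5.82 to 37.1) and 11.9 times higher in PIASy-Mut (5.14 to 33.9) than in PIASy-WT. The adjusted P was 0.0372 relative to non-injection and 0.0425 relative to PIASy-Mut (limma). Both calls were lost with a pseudocount of 5 (adjusted P = 0.0577 and 0.0725, limma), without the mean-variance trend (0.0528 and 0.0572), with a replicate block (0.0531 and 0.0620) and without a filter (0.184 and 0.208), and that relative to PIASy-Mut also after quantile normalization (0.0525), after median scaling (0.0549) and on the 4 libraries compared (0.0723). Hars and Hars2 share 195 exon bases on opposite strands, and fragments there could be told apart only if counting used the strand, which the sources used here do not state.

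Aars, for alanyl-tRNA synthetase, was low throughout. It had 2.69 and 1.91 FPKM without injection, 2.09 and 2.60 with PIASy-Mut and 0.650 and 0.187 with PIASy-WT, where only 8 and 2 fragments were counted. Both values lay below the other 4, and the adjusted P of 0.119 and 0.115 (limma) missed the threshold. Aars passed the filter only through libraries other than PIASy-WT. Wars (tryptophan) was also lower in both PIASy-WT libraries, at 2.85 and 1.26 FPKM beside 3.08 to 4.89 in the other 4, without reaching an unadjusted P of 0.05.

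Farsb and Nars, with the highest means over all 6 libraries, held no call. Farsb was at 47.3 and 61.1 FPKM without injection, 52.9 and 59.6 with PIASy-Mut and 66.8 and 71.1 with PIASy-WT, so that both PIASy-WT libraries were the highest of the 6. The log2 fold change of 0.35 (95% confidence interval -0.25 to 0.95) relative to non-injection and 0.29 (-0.31 to 0.89) relative to PIASy-Mut had an interval that includes 0. Nars was at 34.3 and 66.5, 46.7 and 41.4, and 40.7 and 33.4 FPKM, so that PIASy-WT overlapped non-injection and lay just below PIASy-Mut. Its log2 fold change against non-injection was -0.37 (-1.24 to 0.51), an interval that includes both 0 and the value of Kars. Across settings, leaving out libraries among them, this value ran from -0.83 to 0.10. Against PIASy-Mut it was -0.25, and 0.12 under quantile normalization. Gars (glycine) reached 8.22 and 13.7 FPKM in PIASy-WT beside 5.52 to 9.94 in the other 4. The 6 other tested genes of this set (Sars, Tars, Yars, Farsa, Vars and Cars) had mean FPKM values of 0.76 to 4.82 and an adjusted P above the threshold in both comparisons.

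Several of these genes are textbook targets of the transcription factor ATF4, which raises amino acid supply genes under stress through the C/EBP-ATF response element. RefSeq promoters (250 bases before to 50 after the start, GRCm38.p6, the same build as mm10) were given for 27 of the 38 genes. The element, searched as TGATGNAA on both strands, occurred in 5 of these 27 promoters (18.5%), those of Aars, Gars, Iars, Tars and Yars, beside 3.97% of 32851 promoters in the table. All 5 are among the 13 cytosolic genes with a promoter, and the 14 mitochondrial ones held 0. They are shown as the promoters that hold the element. Iars and Aars are among the 9 genes lower at an unadjusted P under 0.05 and Gars, Tars and Yars are not, but the difference between these genes was not tested. Against non-injection the 95% confidence intervals of Gars, Tars and Yars were -0.48 to 1.57, -1.71 to 1.01 and -1.14 to 0.87, beside fold changes of -1.12 for Iars and -1.23 for Aars. The sequences run 5′ to 3′ on the gene's strand, with the element in capitals, at chr8:111033592-111033891 (plus strand), chr13:49681880-49682179 (plus), chr6:55037751-55038050 (plus), chr15:11399609-11399908 (minus) and chr4:129189653-129189952 (plus).
Aars: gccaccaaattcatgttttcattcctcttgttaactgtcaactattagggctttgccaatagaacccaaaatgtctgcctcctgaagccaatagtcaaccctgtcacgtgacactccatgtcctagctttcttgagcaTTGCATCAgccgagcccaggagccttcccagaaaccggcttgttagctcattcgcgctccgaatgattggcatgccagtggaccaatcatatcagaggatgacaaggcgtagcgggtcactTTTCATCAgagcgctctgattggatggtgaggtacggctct
Iars: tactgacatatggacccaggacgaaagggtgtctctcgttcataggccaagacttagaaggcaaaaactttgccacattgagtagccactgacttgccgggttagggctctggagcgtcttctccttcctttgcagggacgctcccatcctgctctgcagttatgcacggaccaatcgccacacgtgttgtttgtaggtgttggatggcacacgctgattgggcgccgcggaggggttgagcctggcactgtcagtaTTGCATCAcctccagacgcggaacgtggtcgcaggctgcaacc
Gars: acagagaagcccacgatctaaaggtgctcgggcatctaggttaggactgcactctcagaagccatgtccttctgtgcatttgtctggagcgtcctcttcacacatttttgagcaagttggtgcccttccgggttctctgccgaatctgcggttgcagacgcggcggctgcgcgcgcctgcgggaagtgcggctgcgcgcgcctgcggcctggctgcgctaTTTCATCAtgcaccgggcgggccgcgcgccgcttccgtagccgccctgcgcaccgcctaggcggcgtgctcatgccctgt
Tars: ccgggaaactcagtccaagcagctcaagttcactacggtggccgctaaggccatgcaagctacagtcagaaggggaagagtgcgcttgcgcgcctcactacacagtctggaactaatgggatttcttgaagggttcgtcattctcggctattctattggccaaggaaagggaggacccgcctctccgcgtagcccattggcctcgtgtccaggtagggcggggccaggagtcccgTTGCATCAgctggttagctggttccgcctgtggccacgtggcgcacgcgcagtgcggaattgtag
Yars: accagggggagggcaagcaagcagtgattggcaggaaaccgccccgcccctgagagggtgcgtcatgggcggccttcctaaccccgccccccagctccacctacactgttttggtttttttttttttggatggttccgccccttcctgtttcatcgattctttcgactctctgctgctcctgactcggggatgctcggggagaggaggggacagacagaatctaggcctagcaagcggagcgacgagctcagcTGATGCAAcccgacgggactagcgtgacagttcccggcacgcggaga
Aars holds 2 copies, the first beginning at base -112 and the second at base 10 counted from the start, and Iars has 1 at base 8, Gars at -30, Tars at -15 and Yars at 4. Tars was at 3.48 and 5.69 FPKM without injection, 1.81 and 5.64 with PIASy-Mut and 2.30 and 4.57 with PIASy-WT. Yars was at 3.08 and 2.53, 4.56 and 2.51, and 2.92 and 2.05 FPKM. Both had overlapping groups.

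Other motifs were counted in the same windows. The E-box CACGTG was in the promoters of Aars, Ears2, Farsb, Iars and Tars (18.5% of 27, beside 7.15% of all promoters). The ETS motif CCGGAAG was in 8 (29.6%, beside 8.86%), those of Cars2, Farsa, Gars, Kars, Mars2, Rars2, Sars and Sars2. The NRF1 core CGCATGCG was in Vars2 and Wars2 (7.41%, beside 1.87%), and TATAAA in 3 (11.1%, beside 13.6%). A match describes these letters in this window and is not a measured binding site, and the promoters of Rars and Hars were not among those given.

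The mitochondrial enzymes showed a more divided picture and no call. The 11 tested genes had a median log2 fold change of -0.24 relative to non-injection and -0.38 relative to PIASy-Mut, beside -0.42 and -0.46 for the 20 cytosolic genes. These medians are descriptions, and the difference between compartments was not tested. The 2 most abundant genes had positive fold changes without a call. Fars2 was at 25.3 and 27.9 FPKM without injection, 22.9 and 22.8 with PIASy-Mut and 30.1 and 28.9 with PIASy-WT, and both PIASy-WT libraries were the highest of the 6, by a log2 fold change of 0.15 (95% confidence interval -0.43 to 0.73) and 0.35 (-0.22 to 0.93). Lars2 was at 15.4 and 18.3, 20.9 and 17.1, and 20.2 and 22.9 FPKM. Its PIASy-WT libraries lay above both non-injection libraries and overlapped PIASy-Mut.

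Cars2 and Ears2 (glutamate) were low in PIASy-WT. Cars2 was at 6.28 and 6.23 FPKM without injection, 7.76 and 4.44 with PIASy-Mut and 0.521 and 1.68 with PIASy-WT. Ears2 was at 6.12 and 5.66, 8.46 and 2.45, and 0.732 and 0.507 FPKM, where PIASy-WT had 5 and 3 fragments. In each gene both PIASy-WT libraries lay below the other 4. The fold changes of Cars2 were -1.84 (adjusted P = 0.0644, limma) and -1.77 (adjusted P = 0.0692, limma), and those of Ears2 -2.09 (adjusted P = 0.0719, limma) and -1.82 (adjusted P = 0.0958, limma). By voom the adjusted P of Cars2 was 0.00612 and 0.00812, and that of Ears2 0.0220 and 0.0401. Ears2 passed the filters of limma and voom only through libraries other than PIASy-WT, where it was higher. Without Lars2 and Fars2, the other 15 mitochondrial genes summed to 24.5 and 27.6 FPKM without injection, 30.4 and 17.1 with PIASy-Mut and 8.90 and 15.4 with PIASy-WT.

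Hars2 and Rars2, the mitochondrial partners of the called genes, are given for that reason. Hars2, at chr18:36783008-36792562 on the plus strand, was at 2.23 and 3.31 FPKM without injection, 4.75 and 1.07 with PIASy-Mut and 0.353 and 1.02 with PIASy-WT. Rars2, at chr4:34614957-34660167 on the plus strand, was at 3.18 and 3.83, 1.05 and 3.31, and 1.09 and 5.97 FPKM. Hars2 was lowest in PIASy-WT, with a PIASy-Mut value just above, at an adjusted P of 0.252 and 0.303 (limma), while the Rars2 libraries of PIASy-WT held both one of the lowest values and the highest. Sars2 (serine) was also below the other 4 libraries in PIASy-WT, on 1 and 2 fragments beside 3 to 12. Its log2 fold change against non-injection, -0.95, was -0.28 without the second non-injection library. Yars2 (tyrosine) went the other way, with 8 and 6 fragments in PIASy-WT beside 0, 3, 0 and 1, and adjusted P-values of 0.209 and 0.149 (limma). Mars2 and Tars2 had 2 to 24 fragments a library, and both genes overlapped between PIASy-WT and non-injection. The PIASy-Mut values of Mars2 lay below the other 4, and Tars2 in PIASy-WT lay below both PIASy-Mut libraries.

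Tested genes made 11 pairs of a cytosolic and a mitochondrial gene of the same amino acid that are given here, with Farsa and Farsb each paired with Fars2. Against non-injection, Eprs and Ears2 (-1.45 and -2.09) and Hars and Hars2 (-2.89 and -1.17), which share exon bases, were negative together. The cysteine and arginine pairs were also negative in both genes. In the cysteine pair the mitochondrial gene had the lower value, at -0.41 for Cars and -1.84 for Cars2. For arginine it was the cytosolic gene, at -3.54 for Rars and -0.24 for Rars2. Across settings, leaving out libraries among them, the Rars2 value ran from -1.10 to 0.63. The tyrosine genes had opposite signs, -0.14 for Yars and 1.04 for Yars2. The plot of pairs shows both comparisons, which share the PIASy-WT libraries.

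**Figure D4:**
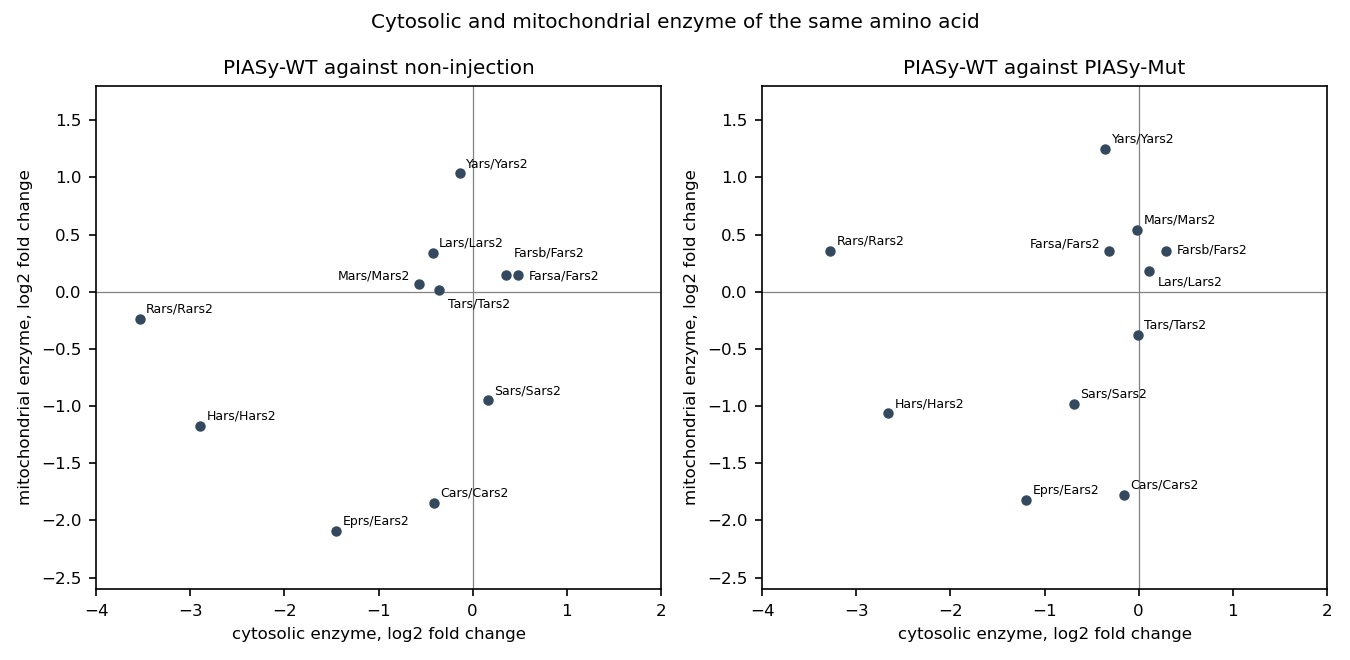
Log2 fold change of the mitochondrial enzyme against that of the cytosolic enzyme of the same amino acid, for 11 pairs, in PIASy-WT against non-injection (left) and against PIASy-Mut (right). Rars/Rars2 lies far to the left near the horizontal zero line, Cars/Cars2 far down near the vertical one, and Eprs/Ears2 and Hars/Hars2 lie low on both axes.

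Counted by order alone, both PIASy-WT libraries lay below the other 4 in 13 of the 31 genes (41.9%), beside a background of 24.4% of all genes tested. Of these, 9 were cytosolic and 4 mitochondrial. Both lay above the other 4 in 3 genes, Farsb, Fars2 and Yars2 (9.68%), beside 19.9% of all genes. The filter bears on such counts: 5 genes (Aars, Cars, Ears2, Sars2 and Tars2) reached 1 FPKM only in libraries other than PIASy-WT, and Yars2 only in PIASy-WT. The summed FPKM of the 21 cytosolic genes was 273 and 353 without injection, 326 and 280 with PIASy-Mut and 199 and 192 with PIASy-WT, so that PIASy-WT stood below the other 4 libraries. For the 17 mitochondrial genes the sums, 65.2 and 73.8, 74.2 and 57.0, and 59.2 and 67.2, overlapped. By class of enzyme, class I and class II genes each had 1 call, and their medians were -0.42 and -0.35 against non-injection and -0.15 and -0.57 against PIASy-Mut.

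**Figure D5:**
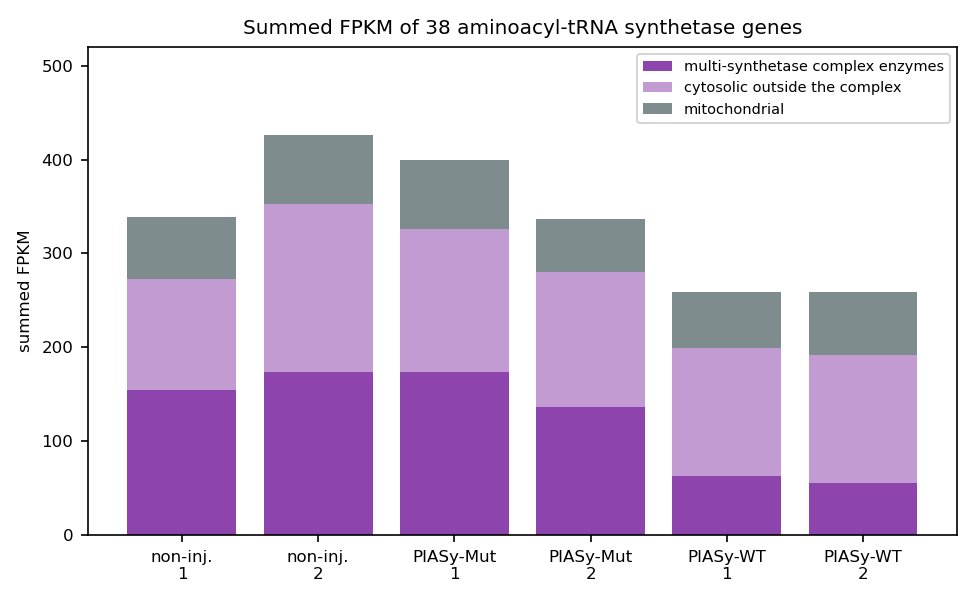
Summed FPKM of the synthetase genes in each library, stacked by the 8 multi-synthetase complex enzymes, the 13 cytosolic enzymes outside the complex and the 17 mitochondrial enzymes. The complex part is 136 to 174 in the PIASy-Mut and non-injection libraries and 55.8 and 63.3 in PIASy-WT.

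In PIASy-Mut against non-injection, fold changes of the 31 genes ran from -0.60 for Rars2 to 0.85 for Sars, with a median of -0.07 beside 0.04 over all genes. None had an unadjusted P under 0.05 by limma, where 2.09% of all genes were lower and 2.37% higher, and voom called 0, beside 0.0% and 0.0196% of its genes. The spread between the 2 PIASy-Mut libraries was wide for several of the 9 lower genes, with the second at 2.45 FPKM beside 8.46 for Ears2 and at 8.66 beside 19.5 for Hars. With 2 libraries a group, an exact two-sided permutation test of a single gene cannot go below 0.333, so the calls rest on the spread that limma shares across genes. For Rars and Hars both fold changes stayed below -2 when any 1 library was left out, from -3.81 to -3.01 and from -3.44 to -2.12, but their calls did not stay. Without any one of the non-injection or PIASy-WT libraries, 0 synthetase genes and 0 genes of the whole table were called lower in either comparison, and the largest adjusted P was 0.188 for Rars and 0.204 for Hars (limma).

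The 7 genes below the filter had 0 to 15 fragments a library. In the order of non-injection, PIASy-Mut and PIASy-WT libraries, Aars2 had 1, 1, 0, 1, 0 and 0 fragments, Pars2 had 2, 0, 1, 0, 0 and 0 and Iars2 had 0, 0, 2, 0, 1 and 2. Nars2 had 0, 1, 4, 0, 2 and 0 fragments and Vars2 had 1, 2, 2, 4, 1 and 0. No difference was detectable in these 5 genes at this depth. Wars2 had 7 and 6 fragments without injection, 0 and 1 with PIASy-Mut and 9 and 4 with PIASy-WT. Tarsl2 had 5 and 0, 3 and 1, and 4 and 15 fragments, but shares 120 exon bases on the same strand with Tm2d3, which was at 347 to 632 FPKM. Iars2 shares 2034 bases on opposite strands with Rab3gap2, which had 15 to 56 fragments a library. Overlaps also touch genes described above, with 1326 shared bases for Aars and Exosc6, which was at 0 in every library, 422 for Cars2 and Naxd, 501 for Fars2 and Nrn1 and 248 for Farsb and Sgpp2. Fars2 also shares 115 bases on opposite strands with Lyrm4, which was at 6.04 to 18.1 FPKM in the PIASy-Mut and non-injection libraries and 21.7 and 17.5 in PIASy-WT. Ears2 shares 89 with Ubfd1, at 9.76 to 18.9 FPKM, and Mars 68 with Ddit3, at 17.3 to 37.4 FPKM. The part of these overlaps in the values was not tested.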

How the data were processed

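RNA-seq libraries of two-cell embryos (3 groups, 2 libraries each, 5 embryos per library) were analysed. The authors amplified cDNA with SMART-Seq v4 for 11 cycles and made libraries with Nextera XT for 13 cycles, trimmed reads with Trim Galore, aligned them to mm10 with STAR, counted uniquely mapped reads with featureCounts and deposited FPKM for 53023 genes. Versions, the annotation release and the strand setting are not given in the sources used here. Spike-in RNA was added at lysis but has no row in the table used here, so levels are shares of a library. The authors tested counts with DESeq2.

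FPKM times length, divided by its value for 1 fragment, was whole (within 0.01) for 100% of values above 0, which gave each library's depth. Length is that of the union of exons. All 6 libraries were fitted without a block with limma 3.58.1 (R 4.3.3, eBayes with trend, 3 residual and 3.12 prior degrees of freedom) on log2(FPKM + 1) over the 16100 genes that reached 1 FPKM in 2 or more libraries, with Benjamini-Hochberg adjustment over all of them. A fold change on this scale understates that of low genes. Voom used genes with 10 or more recovered fragments in 2 or more libraries. The fit was also run on simulated counts with a common spread, which amplified libraries need not share. That run does not test the calls made here. Count intervals are exact binomial. Synthetase genes given in full were those called, the 3 highest cytosolic and 3 highest mitochondrial, those below the filter and the partners of called genes, and further genes were added after their values were seen. A synthetase gene and a further charging gene are not reported by name here but are part of the counts, medians and sums. Genes and lists were chosen with earlier results of these data known. Other pseudocounts, filters, scalings, a replicate block and leaving out libraries were tried. Promoters are from RefSeq (GRCm38.p6), and sequence sharing was computed from GENCODE M21 transcripts. Python 3.11.15, pandas 2.3.3 and scipy 1.17.1 were used.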

Additional observations from a re-analysis of the deposited data

How the results depend on the processing

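Relative to 2 synthetase genes lower in PIASy-WT against non-injection and 2 against PIASy-Mut, the counts were 1 and 1 with a pseudocount of 5, 0 and 0 without a filter on low values (where 31 and 28 genes of the whole table were lower), 4 and 4 at an FPKM of at least 5, 1 and 1 without the mean-variance trend, 9 and 9 with voom, and 8 and 0 on the 4 libraries compared. The share of all genes called lower, 5.76% and 6.01% here, was 4.4% and 4.76%, 0.0585% and 0.0528%, 17.4% and 17.9%, 1.59% and 2.88%, 19.0% and 18.8%, and 13.8% and 0.0% in the same order. Leaving out 1 library gave 0 to 8 against non-injection and 0 to 6 against PIASy-Mut. The count was 8 against non-injection without either PIASy-Mut library, 6 against PIASy-Mut without its second, and 0 otherwise, beside 12.2%, 12.3%, 13.2% and 0.0% of all genes. Quantile normalization and median scaling each left 1 against PIASy-Mut. They shifted the median of all genes by 0.11 and 0.11 against non-injection and by 0.15 and 0.18 against PIASy-Mut. Dars against non-injection and Cars, Mars, Nars and Tars against PIASy-Mut changed sign in at least 1 of them. So did Aars, Farsb and Sars2 in PIASy-Mut against non-injection. By quantile normalization Dars went from -0.22 to 0.07 and Nars from -0.25 to 0.12, more than the median shifted. With a replicate block the count was 1 and 1, with Rars kept and Hars lost. Correlations of same-numbered deviations were 0.0037 to 0.085, which does not settle whether same-numbered libraries were collected or handled together. The block changed no other call of a synthetase gene, moved Dtd2 and Psat1 against PIASy-Mut across the threshold (adjusted P = 0.0678 and 0.0484, limma) and took the lower calls of the whole table to 719 and 799.

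The cytosolic median against non-injection, -0.42, was -0.78 with a pseudocount of 0.1, -0.19 with 5, -0.74 at an FPKM of at least 5 and -0.70 with voom, and -0.60 to -0.35 when 1 library was left out. Against PIASy-Mut, -0.46 was -0.82 at an FPKM of at least 5, -0.24 after quantile normalization and -0.85 with voom, and -0.68 to -0.36 without 1 library. The mitochondrial medians, -0.24 and -0.38, were -0.85 and -0.80 at an FPKM of at least 5. Only Cars2 and Ears2, which were negative, and Fars2 and Lars2, which were positive, remained there. Against PIASy-Mut the median was -0.78 with voom. Without 1 library the medians were -1.06 to -0.11 and -0.82 to -0.23, the lowest in each without the second PIASy-WT library. In PIASy-Mut against non-injection the mitochondrial median, -0.11, ran from -0.27 to 0.27. Of the values of single genes under an alternative, 1236 kept their side of the threshold and, where not called, moved by less than their standard error, 40 passed it anew, 32 no longer passed and 92 moved by more. Of the 1236 and the 92, 50 and 18 changed sign. No value called in the fit used here reversed. Genes under 10 fragments a library limit what can be seen, and the cause of the changes between settings was not tested.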

Other observations

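Genes that act beside the synthetases in tRNA charging were read from the same fit. Of 21 listed, 19 were tested, with a median log2 fold change of -0.27 for PIASy-WT against non-injection and -0.20 against PIASy-Mut. Limma called 1 lower and 0 higher against non-injection and 1 lower and 1 higher against PIASy-Mut, beside the shares of all genes given above, and voom called 3 lower and 0 higher of 17 in each. At an unadjusted P under 0.05 by limma, 4 were lower and 2 higher, and 3 lower and 3 higher. Of all genes tested, 17.6% and 18.2% were lower and 10.6% and 9.46% higher at that threshold. Dtd2, which removes wrongly attached amino acids from tRNA, was higher than in PIASy-Mut (log2 fold change 1.94, adjusted P = 0.0495 by limma and 0.0515 by voom), a call lost with a replicate block (adjusted P = 0.0678, limma), and missed the threshold against non-injection (1.39, adjusted P = 0.0958, limma), at 1.42 and 1.71 FPKM without injection, 1.25 and 0.369 with PIASy-Mut and 5.83 and 5.60 with PIASy-WT.

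Genes of ATF4 and the amino acid response had fold changes in both directions. Of 23 listed, 21 were tested, with a median log2 fold change of 0.07 relative to non-injection and -0.34 relative to PIASy-Mut. Limma called 2 lower against non-injection and 1 against PIASy-Mut and 0 higher in both, beside 5.76% and 6.01% of all genes lower. At an unadjusted P under 0.05 by limma, 4 and 5 were lower and 2 and 1 higher. At that threshold 17.6% and 18.2% of all genes were lower and 10.6% and 9.46% higher. Voom called 4 lower and 1 higher of 17 in each, beside 19.0% and 18.8% of its genes lower and 8.51% and 5.94% higher. Psat1, of serine synthesis, was lower than in non-injection (log2 fold change -2.56, adjusted P = 0.0409, limma). It missed the threshold against PIASy-Mut (adjusted P = 0.0599, limma) but passed there with a replicate block (adjusted P = 0.0484, limma). Its FPKM was 57.0 and 42.0 without injection, 58.3 and 20.8 with PIASy-Mut and 7.98 and 6.95 with PIASy-WT. Ppp1r15a, a phosphatase subunit that restores translation after stress, was lower in both comparisons (adjusted P = 0.0268 and 0.0240, limma), at 52.7 FPKM or more in the other 4 libraries and 12.1 and 10.7 in PIASy-WT. Atf3, a stress-induced transcription factor, was at 1.02 and 2.05 FPKM without injection, 0.900 and 2.66 with PIASy-Mut and 13.3 and 7.27 with PIASy-WT. Its log2 fold changes of 2.13 and 2.04 missed the threshold by limma (adjusted P = 0.0636 and 0.0687) and passed by voom (adjusted P = 0.0278 and 0.0481). Trib3, a pseudokinase, and Sesn2, a leucine sensor, stood likewise on the lower side. Trib3 had log2 fold changes of -1.50 and -1.67 (adjusted P = 0.0845 and 0.0672 by limma, 0.0385 and 0.0262 by voom), and Sesn2 of -1.70 and -1.60 (adjusted P = 0.0824 and 0.0938 by limma, 0.0263 and 0.0364 by voom). Atf4 itself was at 82.5 and 109, 142 and 92.5, and 65.2 and 64.1 FPKM and missed the threshold (adjusted P = 0.283 and 0.143, limma).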
